A study of Mus musculus with 6 samples.

Results

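Interferon-induced genes, the interferon receptors and the STAT and IRF transcription factors were examined on arrays of mouse embryonic stem cells in which BRG1 had been knocked down. The members were chosen by the gene name that the array files give each probe: names of the Ifi, Ifit, Ifitm, Oas, Irf, Stat, Ifnar, Ifngr and Mx families, and Isg15, Isg20, Zbp1, Usp18, Rsad2, Cxcl9, Cxcl10, Cxcl11, Ddx58, Ifih1, Eif2ak2 and Bst2. Stat3 was left out by the rule. All probes of a name were taken, which gave 99 probes for 62 gene names, of 41174 probes and 27962 gene names in all. The rule used names alone and no measured value. Irf9, a partner of STAT2, is listed on the array as Isgf3g and is therefore no member; its values are given beside the STAT factors. Xaf1 and the older names Prkr and G1p2 had no probe.

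The BRG1 siRNA group had 3 samples of embryonic stem cells given an siRNA against BRG1, and the control siRNA group had 3 samples given a control siRNA. In both groups the treatment lasted 48 h and the cells were of an F1 background of the 129 and C57BL/6 strains. Each sample was hybridised to a single-colour Agilent array from 500 ng of total RNA. The labels name no interferon treatment, no cells without siRNA and no separate cultures for the replicates, so a p-value reflects how far these arrays scatter, and that scatter may be technical.

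Type I interferons bind the receptor of IFNAR1 and IFNAR2, whose kinases JAK1 and TYK2 phosphorylate STAT factors such as STAT2. With IRF9 these form ISGF3, which binds the interferon-stimulated response element (ISRE) in front of antiviral genes such as Isg15 and the Oas, Ifit and Mx families. Interferon gamma signals through IFNGR1 and IFNGR2 to STAT dimers, which bind the gamma-activated site (GAS) in promoters such as that of Irf1. Embryonic stem cells are known to respond weakly to interferon. BRG1, encoded by Smarca4, is the ATPase of SWI/SNF chromatin remodelling complexes, and in human cell lines it is known to act at interferon-responsive promoters.

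Promoters of interferon-induced genes are known to carry the elements that ISGF3, the IRF factors and STAT dimers bind, so stretches are shown for members whose levels are given below. RefSeq promoters on GRCm38.p6, each covering the 250 bases before and the 50 bases after a gene's start, were found for 49 of the 62 genes, as 58 promoters. The core of the ISRE, GAAA followed by any 2 bases and then GAAA again, was searched on both strands with overlapping matches allowed. It was in 20 of the 58 member promoters (34.5%) and in 1131 of all 32851 promoters (3.44%). TTCNNNGAA, the core of the GAS, was in 14 member promoters (24.1%) and in 2726 of all promoters (8.3%). Each sequence reads 5′ to 3′ in the direction of its gene, with the match in capitals. The stretch of Isg15 lies at chr4:156200836-156200935 on the minus strand, with 3 overlapping ISRE cores that begin 78 to 66 bases before the start. That of Cxcl10 lies at chr5:92349040-92349139 on the minus strand, with its match 213 bases before the start. That of Stat4 lies at chr1:52008098-52008197 on the plus strand, with its match 97 bases before the start. That of Stat2 lies at chr10:128270248-128270347 on the plus strand, and its match, 222 bases before the start, is on the other strand, so the capitals show the reverse complement. That of Irf1 lies at chr11:53769878-53769977 on the plus strand and holds a GAS core 90 bases before the start; it was added because no ISRE core was found in its window.
Isg15 promoter: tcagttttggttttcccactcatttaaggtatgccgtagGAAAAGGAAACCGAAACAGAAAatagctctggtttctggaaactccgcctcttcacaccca
Cxcl10 promoter: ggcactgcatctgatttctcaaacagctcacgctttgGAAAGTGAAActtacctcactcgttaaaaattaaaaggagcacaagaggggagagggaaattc
Stat4 promoter: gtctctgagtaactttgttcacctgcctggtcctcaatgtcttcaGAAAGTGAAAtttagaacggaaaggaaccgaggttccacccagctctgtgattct
Stat2 promoter: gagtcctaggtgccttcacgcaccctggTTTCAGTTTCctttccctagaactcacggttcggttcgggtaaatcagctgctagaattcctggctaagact
Irf1 promoter: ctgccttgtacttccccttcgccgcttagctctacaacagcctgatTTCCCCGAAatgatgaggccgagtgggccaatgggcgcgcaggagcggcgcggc
The ISRE core was in 3 of 6 promoters (6 genes) of members that rose with BRG1 siRNA and in 5 of 17 promoters (13 genes) of members that fell. It was in 6 of 22 promoters (18 genes) of tested members that did not pass. Of members that were not tested, it was in 6 of 13 promoters (12 genes). Some genes have several promoters, so shares by promoter and by gene differ. No promoter was found for Zbp1, Cxcl11 and Ifi27. A match is a description of these letters and not evidence of a bound site.

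Levels are given as log2 of a probe's processed signal relative to the 75th percentile of its array, so that 0 is that percentile, and levels of different probes cannot be compared. Signal quality differed among arrays: 65.52%, 60.89% and 70.86% of spots were well above background on BRG1 siRNA replicates 1, 2 and 3, against 75.33%, 64.84% and 69.16% on control siRNA replicates 1, 2 and 3. Slide and group overlapped in part. Slide 1 held BRG1 siRNA replicate 1 and all 3 controls, and slide 2 held BRG1 siRNA replicates 2 and 3. Smarca4, the target, fell with all 3 of its probes. The probe with the largest fall had levels of 3.37, 3.50 and 3.33 with BRG1 siRNA, against 4.30, 4.28 and 4.24 with control siRNA, a change of -0.87 ± 0.06 (SE; 1.83-fold lower, limma adjusted p = 0.00181). The other probes of Smarca4 fell by 0.60 and 0.59 on the log2 scale, at adjusted p = 0.00455 and 0.00862. With the slide block these 2 probes had adjusted p of 0.0506 and 0.0785. All 3 probes were well above background on every BRG1 siRNA array.

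Of the 99 member probes, 65 probes for 47 genes passed the detection filter, which asked that all 3 arrays of 1 or both groups be well above background. In a limma fit over all 26258 tested probes, 28 member probes passed at a Benjamini-Hochberg adjusted p under 0.05. Of these, 8 probes for 7 genes were higher with BRG1 siRNA (12.3% of the 65) and 20 probes for 17 genes were lower (30.8%). Of all tested probes, 8.6% were higher and 11.0% were lower by the same rule, 19.6% together. The members that fell included the antiviral genes Zbp1, Isg15, Oasl2, Ifi27 and Ifit2, the transcription factors Irf1 and Stat4, and Ifngr1. The members that rose were the chemokines Cxcl10 and Cxcl11, the receptor chain Ifnar1, Oasl1, and the membrane proteins Ifitm1, Ifitm2 and Ifitm3. The median change of the 65 probes was -0.16 on the log2 scale, against -0.0286 for all tested probes, and 48 of the 65 changes were negative (73.8%), against 55.5% of all. The arrays of the groups did not overlap for 27 member probes that were lower and 9 that were higher, where 23.1% and 18.5% of all tested probes did so. Called changes were mostly small: 17 of the 28 were under 1.5-fold, and 6 probes, for Zbp1, Cxcl11, Oasl2, Isg15 and Ifi27 (2 probes), changed at least 2-fold, as did 0.625% of all tested probes. These sizes depended on the background correction. With the normexp correction, scaled to the 75th percentile or by quantiles, Zbp1 alone of the members stayed above 2-fold (-1.23 and -1.20), and Cxcl11 was at 0.95 and 0.97, Oasl2 at -0.74 and -0.71, and Isg15 at -0.66 and -0.62 on the log2 scale, all still called. Of all tested probes, 0.194% and 0.206% were called and at least 2-fold there.

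**Figure D1:**
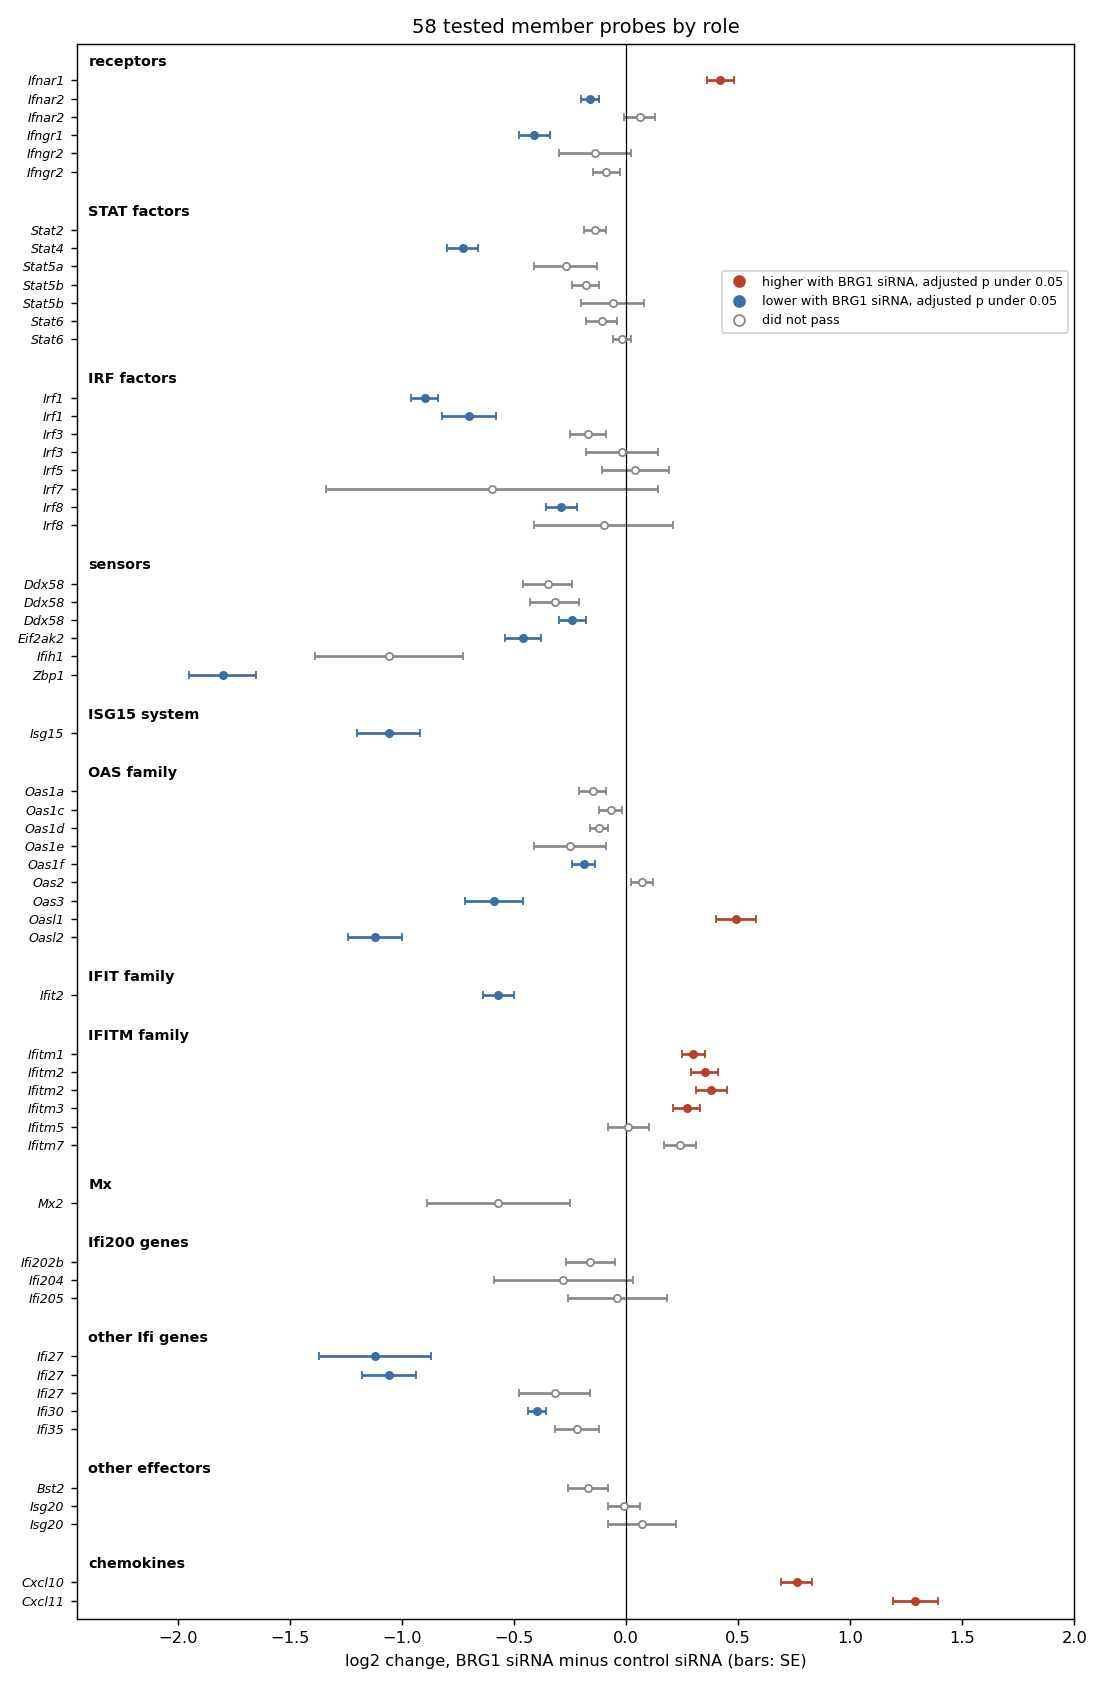
Log2 change, BRG1 siRNA minus control siRNA, of 58 of the 65 tested member probes, grouped by role, with bars of 1 SE. Filled points passed the test, 8 of them to the right of 0 and 17 to the left.

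These counts depended on single arrays and on the slide. Without control siRNA replicate 3 the fit called 2 member probes higher and 8 lower, against 2.65% and 3.53% of all probes tested in that fit. Without control siRNA replicate 2 it called 4 and 9 of 71 member probes, against 2.79% and 4.31% of all, and without BRG1 siRNA replicate 2 it called 4 and 11 of 66, against 3.52% and 4.49% of all. Leaving out control siRNA replicate 1 gave 5 higher and 14 lower, against 5.29% and 5.8% of all. Calls over all probes fell in these fits as well. With slide as a block, 3 member probes were higher and 7 lower, against 1.86% and 2.97% of all tested probes (4.83% together). All 28 called members kept their sign. Slide 2 held no control, so each change in that fit compares BRG1 siRNA replicate 1 with the mean of the 3 controls. BRG1 siRNA replicates 2 and 3 add there only to the estimate of scatter. Within slide 1 alone, which has 1 BRG1 siRNA array, limma called 0 probes at an adjusted p under 0.05, while 30 member probes and 7716 of all tested probes had an unadjusted p under 0.05. On slide 1 alone the changes are those of the slide block, so the signs of the 28 called members are the same by construction. Scaling on the spike-in probes in place of the 75th percentile moved the median of all tested probes to 0.17 on the log2 scale and that of the members to 0.04, with 10 member probes called higher and 9 lower, against 17.6% and 2.79% of all tested probes (20.4% together). Of the probes named below as not passing, those of Irf3, Oas1a, Bst2, Ifi202b, Stat6, Stat2 and Ifngr2 and the dimmer probe of Irf8 turned positive under that scaling. Directions below are relative to the bulk of each array's signals.

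**Figure D2:**
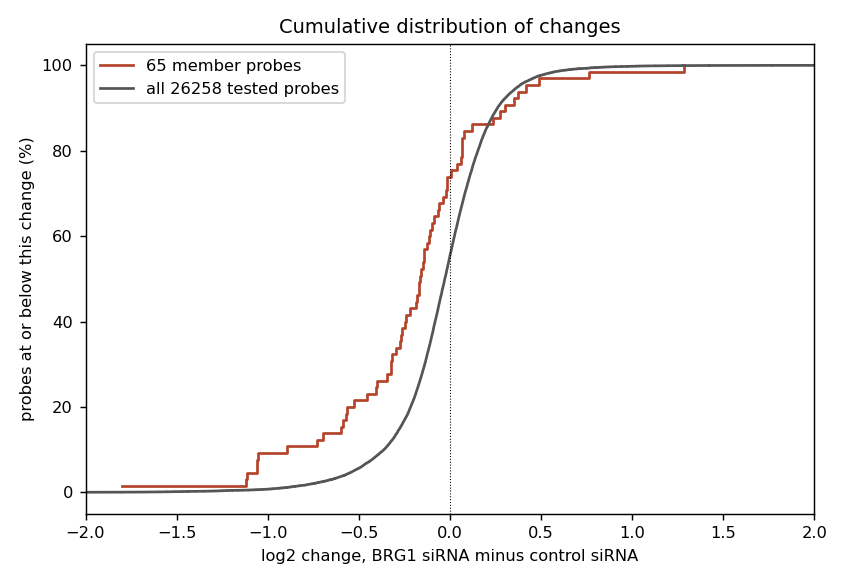
Cumulative share of probes, in percent, at or below each log2 change, BRG1 siRNA minus control siRNA, for the 65 member probes and for all 26258 tested probes. The members' curve lies to the left of the curve of all probes over most of the negative range, with medians of -0.16 and -0.0286.

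**Figure D3:**
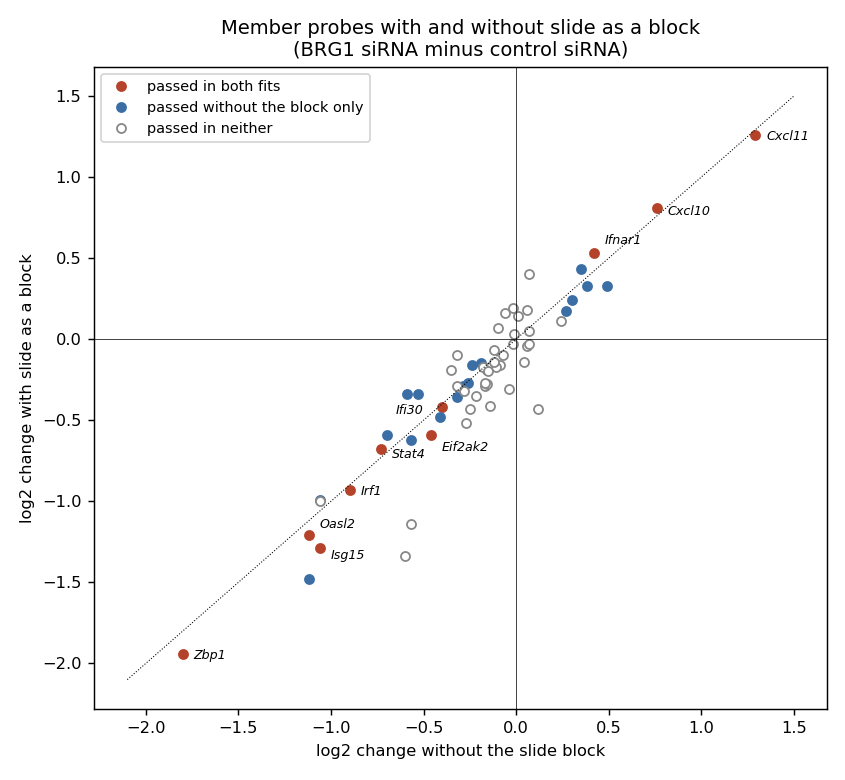
Log2 change of each tested member probe, BRG1 siRNA minus control siRNA, without slide in the fit (horizontal axis) and with slide as a block (vertical axis); the dotted line marks equal values. The 10 labelled probes passed the test in both fits, and the 18 filled points without a label passed only without the block. With the block, each change compares BRG1 siRNA replicate 1 with the mean of the controls.

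The fits with and without the slide block share their arrays, so passing in both is not independent support. The probes that passed in both fits were those of Zbp1, Cxcl11, Oasl2, Isg15, Irf1 (the brighter probe), Cxcl10, Stat4, Ifnar1, Ifi30 and Eif2ak2. Of these, Zbp1, Cxcl11, Oasl2, Isg15, Irf1, Cxcl10 and Stat4 also passed under every other setting at the level of probes, left-out arrays included, with slide 1 alone as the exception. In all, 18 of the 28 called members lost their call when 1 array or another was left out, and those that are described below have their values there.

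**Figure D4:**
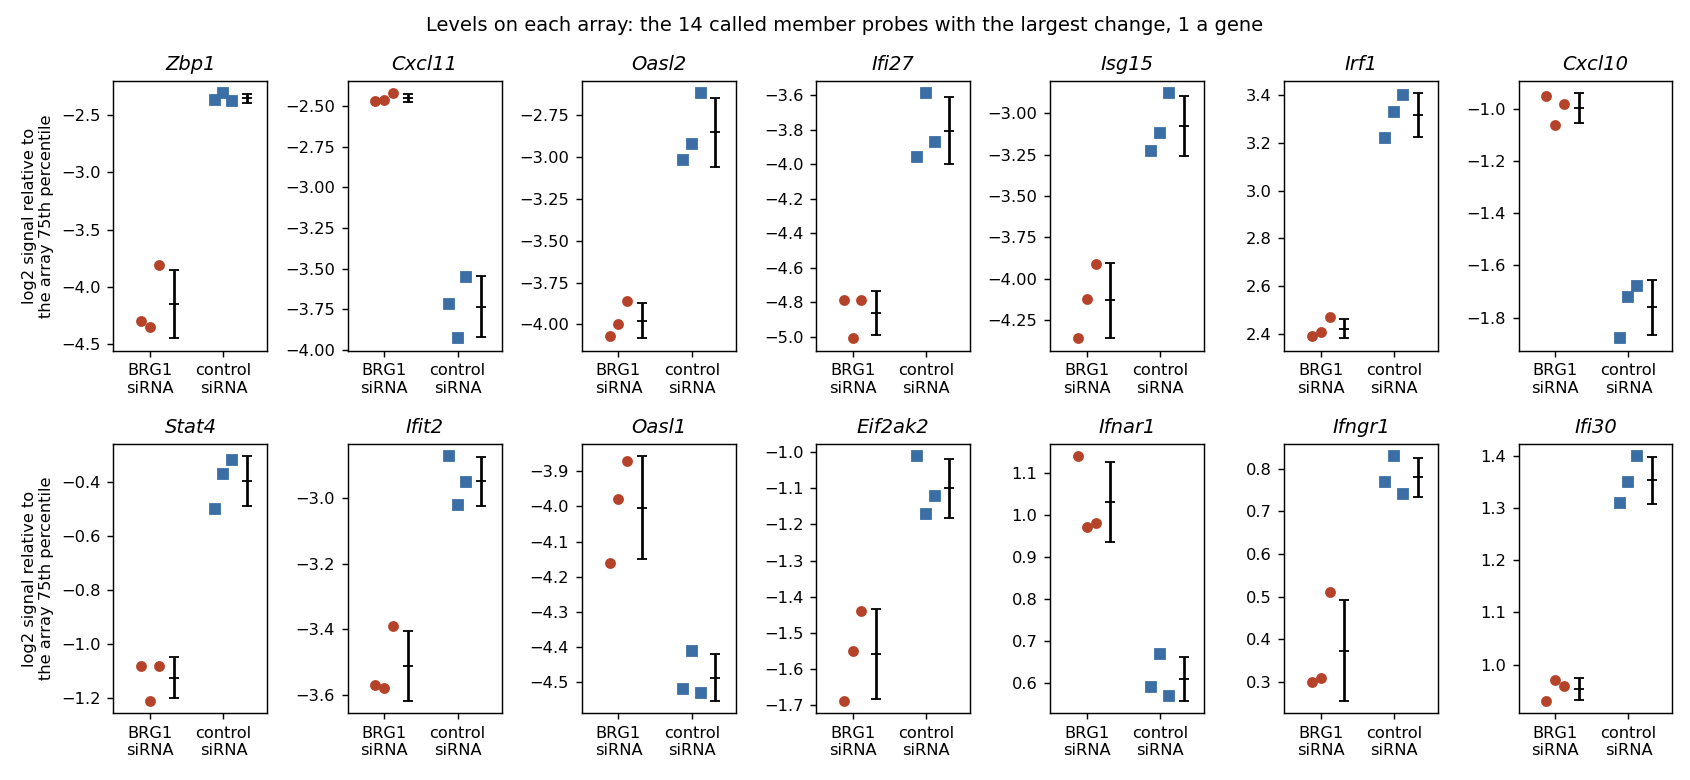
Level on each array, as log2 of the signal over that array's 75th percentile, for the 14 called member probes with the largest change among those well above background on all 6 arrays, 1 probe a gene. Red circles are BRG1 siRNA arrays and blue squares control siRNA arrays. Bars show the mean and SD of 3 arrays, and each panel has its own axis. The groups do not overlap in any panel, which the choice of called probes with large changes makes likely. Of all tested probes 23.1% did not overlap and were lower, and 18.5% did not overlap and were higher.

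Among the receptors, Ifnar1, a chain of the type I interferon receptor, rose. Its levels were 1.14, 0.97 and 0.98 with BRG1 siRNA, against 0.59, 0.67 and 0.57 with control siRNA. The change was 0.42 ± 0.06 (SE; 1.34-fold higher, limma adjusted p = 0.0107), and without control siRNA replicate 3 it was 0.40 at an adjusted p of 0.0575. Median scaling gave 0.47 at an adjusted p of 0.0524, and the replicate block 0.42 at 0.0514. Ifnar2, the other chain, had levels of -0.16, -0.14 and -0.10 with BRG1 siRNA, against 0.05, 0.03 and 0.00 with control siRNA, at its brighter probe. That probe fell by 0.16 on the log2 scale (adjusted p = 0.0462), lost its call without any 1 of the controls or of BRG1 siRNA replicates 1 and 2 (adjusted p of 0.124 to 0.138), and had a change of 0.04 under spike-in scaling. The second Ifnar2 probe had a change of 0.06 (adjusted p = 0.583).

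Ifngr1, the ligand-binding chain of the interferon gamma receptor, fell. Its levels were 0.30, 0.31 and 0.51 with BRG1 siRNA, against 0.77, 0.83 and 0.74 with control siRNA. The arrays did not overlap, and the change was -0.41 ± 0.07 (SE; 1.33-fold lower, limma adjusted p = 0.0146). Without control siRNA replicate 2 or 3, or BRG1 siRNA replicate 1 or 2, its adjusted p was 0.0543 to 0.0673, and with the slide block it was 0.0655. Median scaling gave -0.35 (adjusted p = 0.0824) and spike-in scaling -0.21 (adjusted p = 0.116), and it also missed the threshold without the filter on dim probes (0.0567) and with the replicate block (0.0627). Ifngr2, the second chain, had levels of -1.42, -1.35 and -1.27 with BRG1 siRNA, against -1.21, -1.28 and -1.28 with control siRNA at its brighter probe, which did not pass (-0.09, adjusted p = 0.309, and 0.11 under spike-in scaling). Of the 4 receptor chains, 1 thus rose, Ifngr1 fell with its only probe and Ifnar2 fell with 1 of its 2 probes.

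The STAT factors carry the signal of the receptors to the nucleus. Stat4, a factor known from lymphocytes and also activated by type I interferon, fell with its only probe. Its levels were -1.08, -1.21 and -1.08 with BRG1 siRNA, against -0.50, -0.37 and -0.32 with control siRNA. The groups were well apart, and the change was -0.73 ± 0.07 (SE; 1.66-fold lower, limma adjusted p = 0.00333).

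Stat2, a subunit of ISGF3, had levels of -0.57, -0.48 and -0.58 with BRG1 siRNA, against -0.39, -0.37 and -0.45 with control siRNA. The arrays did not overlap, but its change of -0.14 ± 0.05 (SE) did not pass (limma adjusted p = 0.103) and was 0.06 under spike-in scaling. Isgf3g, the array's name for Irf9, is the DNA-binding subunit of ISGF3, and it rose. Its brighter probe had levels of -0.05, 0.00 and -0.01 with BRG1 siRNA, against -0.38, -0.31 and -0.52 with control siRNA, a change of 0.38 ± 0.06 (SE; 1.30-fold higher, limma adjusted p = 0.0133). Without BRG1 siRNA replicate 2 its adjusted p was 0.0602. With the slide block the change was 0.35 at an adjusted p of 0.101, and the second Isgf3g probe did not pass (0.36, adjusted p = 0.0771).

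Stat5a, Stat5b and Stat6, which serve mainly cytokine receptors outside the interferon family, had 5 tested probes, and none passed. The brightest of these, a Stat6 probe, had a change of -0.11 (adjusted p = 0.324).

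The IRF factors bind ISRE-like elements. Irf1, an activator whose own gene is a classical target of interferon gamma, fell with both of its probes. At the brighter probe the levels were 2.39, 2.41 and 2.47 with BRG1 siRNA, against 3.22, 3.33 and 3.40 with control siRNA. The change was -0.90 ± 0.06 (SE; 1.86-fold lower, limma adjusted p = 0.00192) and the groups did not overlap. The dimmer Irf1 probe fell by 0.70 ± 0.12 (SE; 1.62-fold lower, adjusted p = 0.0158), and lost its call without control siRNA replicate 2 or 3 or BRG1 siRNA replicate 2 (adjusted p of 0.0565 to 0.0699) and with the slide block (adjusted p = 0.12).

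Irf8, a factor of myeloid cells, fell by 0.29 at the brighter of its probes (adjusted p = 0.0378), and lost its call without any 1 array other than control siRNA replicate 1 (adjusted p of 0.071 to 0.124). Its other probe had a change of -0.10 (adjusted p = 0.848). With the slide block Irf8 did not pass (adjusted p = 0.174). Irf3, the constitutive factor that turns on interferon beta after virus sensing, did not pass at its brighter probe (-0.17, adjusted p = 0.203), nor did Irf7, the amplifier of the interferon response, which was well above background on 1 of 3 BRG1 siRNA arrays (-0.60 ± 0.74, SE, adjusted p = 0.609). Irf2 and Irf4 had no probe that passed the detection filter.

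Zbp1, a sensor of Z-form nucleic acids, had the largest change of the tested members. Its levels were -4.30, -4.35 and -3.81 with BRG1 siRNA, against -2.37, -2.31 and -2.38 with control siRNA. The control arrays lay within a narrow band and all BRG1 siRNA arrays far under it. The change was -1.80 ± 0.15 (SE; 3.48-fold lower, limma adjusted p = 0.00267), and -1.94 with the slide block (adjusted p = 0.0319).

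Eif2ak2, which encodes PKR, the kinase that stops translation on binding double-stranded RNA, also fell. Its levels were -1.69, -1.55 and -1.44 with BRG1 siRNA, against -1.01, -1.17 and -1.12 with control siRNA. The change was -0.46 ± 0.08 (SE; 1.37-fold lower, limma adjusted p = 0.0163), and without any 1 control or BRG1 siRNA replicate 2 the adjusted p was 0.0503 to 0.0677. It was 0.0597 without the filter on dim probes and 0.0699 with the replicate block. Ddx58, which encodes the RNA sensor RIG-I, had 3 tested probes with changes of -0.24, -0.35 and -0.32, and only the first passed (adjusted p = 0.0446). That call was lost when any 1 of the 6 arrays was left out (adjusted p of 0.056 to 0.153) and with the slide block (adjusted p = 0.255). Ifih1, which encodes the RNA sensor MDA5, had a change of -1.06 ± 0.33 (SE) that did not pass (adjusted p = 0.0803), and it was well above background on 1 of 3 BRG1 siRNA arrays.

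Isg15, a ubiquitin-like protein conjugated to other proteins after interferon, fell. Its levels were -4.36, -4.12 and -3.91 with BRG1 siRNA, against -3.23, -3.12 and -2.88 with control siRNA. The change was -1.06 ± 0.14 (SE; 2.08-fold lower, limma adjusted p = 0.00788), and -1.29 with the slide block (adjusted p = 0.0371). The array file places its only probe on another chromosome than the one where RefSeq has Isg15, although the transcript accession given for the probe is that of Isg15. Usp18, the protease that removes ISG15, had no probe that passed the detection filter. The sequence of the Cxcl11 probe, placed by the array file at chr5:92348344-92348495 of mm7, is shown because that gene rests on a single probe; probes were placed by coordinate alone, without exons.
Cxcl11 probe: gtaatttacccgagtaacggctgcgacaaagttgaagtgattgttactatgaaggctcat

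The Oas family includes synthetases that make oligoadenylates on binding double-stranded RNA and so activate RNase L, but not every member is such an enzyme. Of 9 tested genes, each with 1 tested probe, 3 fell and 1 rose. Oasl2, an OAS-like gene with a ubiquitin-like end, fell. Its levels were -4.07, -4.0 and -3.86 with BRG1 siRNA, against -3.02, -2.92 and -2.62 with control siRNA. The groups were far apart, and the change was -1.12 ± 0.12 (SE; 2.17-fold lower, limma adjusted p = 0.00436). Oasl1, its neighbour on chromosome 5, moved the other way. It had levels of -4.16, -3.98 and -3.87 with BRG1 siRNA, against -4.52, -4.41 and -4.53 with control siRNA. Oasl1 rose by 0.49 ± 0.09 on the log2 scale (SE; 1.40-fold, limma adjusted p = 0.016). Its call was lost without any 1 control or BRG1 siRNA replicate 2 (adjusted p of 0.0535 to 0.0742) and with the slide block (0.33, adjusted p = 0.0903). It also missed the threshold with trended moderation (0.0529), without the filter on dim probes (0.0584) and with the replicate block (0.0521), and with the normexp correction the rise was 0.32 or 0.36.

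Oas3, well above background on 2 of 3 BRG1 siRNA arrays, fell by 0.59 (adjusted p = 0.0332), and Oas1f fell by 0.19 (adjusted p = 0.0477). Oas3 lost its call without any 1 control or BRG1 siRNA replicate 3 (adjusted p of 0.0611 to 0.118), and Oas1f without any 1 of the 6 arrays (adjusted p of 0.0746 to 0.163). With the normexp correction Oas3 had a change of -0.36 scaled to the 75th percentile and -0.32 with quantiles, where it did not pass (adjusted p = 0.056). Blocking on slide gave an adjusted p of 0.182 for Oas3 and 0.24 for Oas1f, and under spike-in scaling the change of Oas1f was 0.01. The brightest Oas probe that did not pass was that of Oas1a, with a change of -0.15 (adjusted p = 0.138).

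Ifit2, which binds viral RNA and limits its translation, was the one Ifit gene with a probe that passed the detection filter. Its levels were -3.57, -3.58 and -3.39 with BRG1 siRNA, against -2.87, -3.02 and -2.95 with control siRNA. The groups did not overlap, and the change was -0.57 ± 0.07 (SE; 1.48-fold lower, limma adjusted p = 0.00661). The slide block gave -0.62, at an adjusted p of 0.0505. Mx2, a dynamin-like antiviral GTPase, had a change of -0.57 ± 0.32 (SE) that did not pass (adjusted p = 0.27).

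Ifi27, a small mitochondrial protein in human cells, had 3 tested probes, of which 2 fell. The probe at chr12:100951375-100951434 had levels of -4.79, -5.01 and -4.79 with BRG1 siRNA, against -3.96, -3.59 and -3.87 with control siRNA. It fell by 1.06 ± 0.12 (SE; 2.08-fold lower, limma adjusted p = 0.00476), and with the slide block its change was -0.99 (adjusted p = 0.0534). The probe at chr12:100937850-100937909 fell by 1.12 ± 0.25 (SE; adjusted p = 0.0321), was well above background on 2 of 3 BRG1 siRNA arrays, and lost its call without any 1 array other than BRG1 siRNA replicate 3 (adjusted p of 0.0843 to 0.115) and with the slide block (adjusted p = 0.0683). With the normexp correction the first of these probes changed by -0.56 or -0.52 and the second by -0.62 or -0.55, all still called. The probe at chr12:100938562-100938621 did not pass (-0.32, adjusted p = 0.218). The transcript accession of the last 2 probes belongs to Ifi27l2a in RefSeq, a neighbouring gene of the same family. The first 2 probes matched at 42 of their 60 bases, the only pair of member probes with at least 40 matching bases, so they may share transcripts. Both are shown as the file gives them, in the direction of the minus strand, with runs of at least 8 shared bases in capitals.
Ifi27 probe at 100951375: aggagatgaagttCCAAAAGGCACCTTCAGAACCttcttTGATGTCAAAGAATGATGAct
Ifi27 probe at 100937850: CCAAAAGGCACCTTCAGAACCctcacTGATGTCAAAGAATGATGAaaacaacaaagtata

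Ifi30, the thiol reductase of lysosomes that aids antigen processing, was a bright member that fell. Its levels were 0.93, 0.97 and 0.96 with BRG1 siRNA, against 1.31, 1.35 and 1.40 with control siRNA. The change was -0.40 ± 0.04 (SE; 1.32-fold lower, limma adjusted p = 0.00477), and it did not pass with median scaling (adjusted p = 0.0928) or spike-in scaling (adjusted p = 0.166). Ifi35 did not pass (-0.22, adjusted p = 0.166). The 3 tested Ifi200 genes, whose products include DNA sensors, did not pass either; the brightest, Ifi202b, had a change of -0.16 (adjusted p = 0.359). Bst2, which encodes tetherin, and Isg20, an RNA exonuclease, had 3 tested probes and none passed; Bst2 had a change of -0.17 (adjusted p = 0.234).

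The Ifitm genes encode small membrane proteins that block virus entry, and Ifitm1, Ifitm2 and Ifitm3 are also known in early germ cells. Of 6 tested probes 4 rose and none fell. Ifitm1 had levels of 3.72, 3.82 and 3.83 with BRG1 siRNA, against 3.48, 3.46 and 3.52 with control siRNA. Ifitm3 had levels of 4.15, 4.24 and 4.37 with BRG1 siRNA, against 3.98, 3.98 and 3.99 with control siRNA. No array overlapped between the groups for either gene, and the rises were small beside those of the chemokines.

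Ifitm1 rose by 0.30 ± 0.05 (SE; 1.23-fold, limma adjusted p = 0.0119) and Ifitm3 by 0.27 ± 0.06 (SE; 1.21-fold, adjusted p = 0.0374). The 2 probes of Ifitm2 rose by 0.35 and 0.38 (1.28-fold and 1.30-fold, adjusted p = 0.0123 and 0.018). The array file places the first at chr7:137372276-137372335 on the minus strand and the second far from it, at chr7:43008745-43008804 on the plus strand. Ifitm7 had a change of 0.24 (adjusted p = 0.0686) and Ifitm5, a bone-specific member, one of 0.01 (adjusted p = 0.963), and neither passed. None of the 4 calls held with the slide block, where the changes were 0.24 for Ifitm1, 0.43 and 0.33 for Ifitm2 and 0.17 for Ifitm3, at adjusted p of 0.0874, 0.0505, 0.127 and 0.218. None held without the filter on dim probes either. Median scaling and the replicate block each left only the second Ifitm2 probe called. Without control siRNA replicate 3 all 4 probes lost their call. Others were also lost without control siRNA replicate 1 (Ifitm3 and 1 Ifitm2 probe), control siRNA replicate 2 (all but 1 Ifitm2 probe), BRG1 siRNA replicate 1 (1 Ifitm2 probe) or BRG1 siRNA replicate 2 (all but 1 Ifitm2 probe). The adjusted p over these fits was 0.0534 to 0.0602 for Ifitm1, 0.0508 to 0.0766 for Ifitm2 and 0.0968 to 0.124 for Ifitm3.

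Cxcl10 and Cxcl11, neighbouring genes on chromosome 5 whose chemokines attract T cells through CXCR3, both rose. Cxcl11 had levels of -2.47, -2.46 and -2.42 with BRG1 siRNA, against -3.72, -3.93 and -3.55 with control siRNA. Cxcl10 had levels of -0.95, -1.06 and -0.98 with BRG1 siRNA, against -1.88, -1.72 and -1.68 with control siRNA. The BRG1 siRNA arrays lay close together and above every control array for both genes.

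Cxcl11 rose by 1.29 ± 0.10 (SE; 2.44-fold, limma adjusted p = 0.00233), the largest rise of the tested members. Cxcl10 rose by 0.76 ± 0.07 (SE; 1.70-fold, adjusted p = 0.00301). In the fit with slide the changes were 1.26 and 0.81, each at an adjusted p of 0.0363. Cxcl9, the third ligand of CXCR3, was well above background on no array.

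The 34 member probes outside the filter included every probe of 15 genes: Ifit1, Ifit3, Ifi203, Ifi44, Ifi47, Ifitm6, Irf2, Irf4, Mx1, Oas1b, Oas1g, Oas1h, Rsad2, Usp18 and Cxcl9. Of these probes 17 were well above background on no array, and the other 17 on at least 1 array but not on all 3 of a group. Their detection varied widely between arrays of the same group. BRG1 siRNA replicates 1, 2 and 3 had 1, 0 and 10 of them above background, against 15, 1 and 6 for control siRNA replicates 1, 2 and 3. Of the 13 genes with several tested probes, the probes of 9 had a single sign, 6 had both called and uncalled probes, and none had probes called in both directions.

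**Figure D5:**
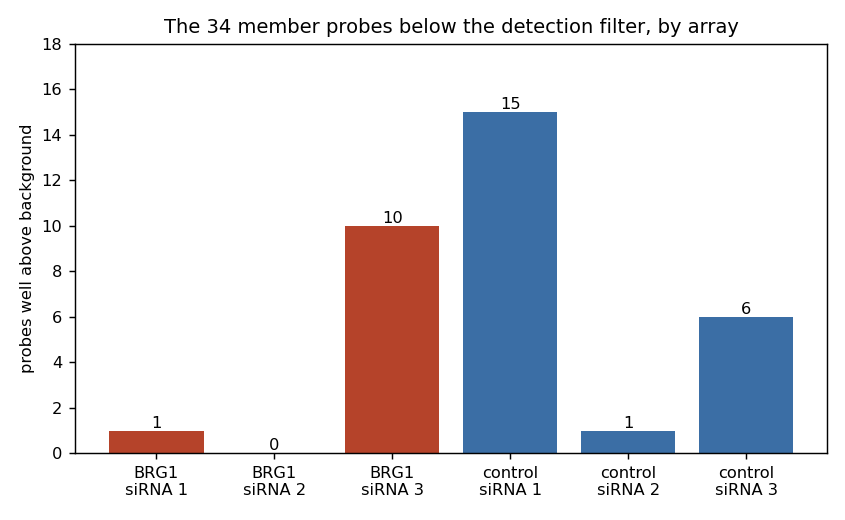
Number of the 34 member probes outside the detection filter that were well above background on each array, BRG1 siRNA arrays in red and control siRNA arrays in blue. The counts run between 0 and 10 in the BRG1 siRNA group and between 1 and 15 in the control siRNA group.

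The rest of the pathway was read from lists of genes that are no members. For comparison, 8.6% of all tested probes rose and 11.0% fell, or 1.86% and 2.97% with the slide block. Interferon genes themselves had 17 probes for 14 genes, of which 6 probes passed the detection filter and none passed the test, with a median change of 0.01; Ifnb1 and Ifna4, an interferon beta and an interferon alpha gene, were well above background on no array. Of the 30 tested probes of receptor kinases and inhibitors, 6 rose and 2 fell, with a median change of 0.04. Jak1, the kinase shared by both interferon receptors, rose with both probes by 0.51 ± 0.06 and 0.31 ± 0.05 (SE; adjusted p = 0.00495 and 0.0106). Pias3 rose by 0.40 (adjusted p = 0.0187), and Socs1, an inhibitor of JAK kinases, fell by 0.37 (adjusted p = 0.0212). Pias3 and Socs1 lost their calls without any 1 array other than BRG1 siRNA replicate 3 (adjusted p of 0.0513 to 0.084 and 0.0625 to 0.0893), and the smaller rise of Jak1 without control siRNA replicate 3 (adjusted p = 0.0597). With the slide block 1 probe of this list, that of Socs2, passed (0.34, adjusted p = 0.0489).

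Of the 36 tested probes for nucleic acid sensing and signalling toward interferon, 4 rose and 3 fell, with a median of 0.03. These counts are near the shares of all tested probes, 8.6% and 11.0%. Myd88, the adaptor of most Toll-like receptors, fell by 0.53 ± 0.05 (SE; 1.44-fold lower, adjusted p = 0.00278). It was the only probe of that list to pass with the slide block (-0.57, adjusted p = 0.0331). Cyld, a deubiquitinase, rose by 0.96 ± 0.20 at 1 of its probes (SE; adjusted p = 0.0263; 0.0581 to 0.1 without any 1 array other than control siRNA replicate 1), and its other probes, at -0.10 and 0.09, did not pass.

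Among 32 tested probes of other interferon-induced genes, 6 rose and 8 fell, with a median of -0.01. Of all tested probes 8.6% rose and 11.0% fell. The largest falls were those of Rtp4 (-1.02 ± 0.17, SE, adjusted p = 0.0142), Parp14 (-0.91 ± 0.09, SE, adjusted p = 0.00382), Lgals3bp (-0.60 ± 0.08, SE, adjusted p = 0.00771) and Phf11 (-0.53 ± 0.04, SE, adjusted p = 0.00212). Rtp4 had levels of -4.73, -4.42 and -4.04 with BRG1 siRNA, against -3.35, -3.36 and -3.41 with control siRNA. The groups did not overlap, with the BRG1 siRNA arrays more scattered, and without control siRNA replicate 2 or 3 or BRG1 siRNA replicate 2 the adjusted p was 0.0609 to 0.0636. The 6 rising probes belonged to Tor3a, Pml and Ripk1, a pair for each gene, with changes of 0.24 to 0.45. The smaller rises of Tor3a and Pml and both of Ripk1 lost their calls when 1 array or another was left out (adjusted p of 0.0506 to 0.125). A further probe of Ripk1 (0.08, adjusted p = 0.658) and a further probe of Parp14 (-0.41, adjusted p = 0.0692) did not pass. With the slide block 1 probe of this list rose and 7 fell, against 1.86% and 2.97% of all tested probes.

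Markers of embryonic stem cells, fibroblasts and blood cells were read in the same way. Of all tested probes 8.6% rose and 11.0% fell, or 1.86% and 2.97% with the slide block. The 15 probes of embryonic stem cell markers were all tested, and 4 rose and 1 fell. Those that rose were of Utf1, Nanog, Klf4 and Lin28 (0.43, 0.41, 0.34 and 0.34, adjusted p = 0.0332, 0.0163, 0.0212 and 0.0313). Each lost its call when 1 array or another was left out (adjusted p of 0.0522 to 0.118). The probe that fell was of Pou5f1 (-0.33, adjusted p = 0.0241). Its adjusted p was 0.069 to 0.0983 without control siRNA replicate 2 or 3 or BRG1 siRNA replicate 2. With the slide in the fit 1 of the 15 probes rose, that of Utf1, and none fell, and Pou5f1 had an adjusted p of 0.158. Their summed signal, in multiples of each array's 75th percentile, was 612 to 629 with BRG1 siRNA, against 605 to 612 with control siRNA. Of 21 tested probes of fibroblast markers, 2 rose and 8 fell, with a median change of -0.24. The summed signal of the list's 30 probes was 65.2 to 67.1 with BRG1 siRNA, against 80.0 to 83.4 with control siRNA. That sum is weighted to the brightest probes, of Acta2 and Tagln, with mean levels of 4.58 and 4.29 with BRG1 siRNA, against 4.76 and 4.6. The bright Acta2 probe did not pass, nor did Col1a2, Dcn and Postn, with changes of 0.01, -0.19 and -0.04. S100a4 fell by 1.09 ± 0.06 (SE; adjusted p = 0.00138) and Mgp rose by 1.17 ± 0.12 (SE; adjusted p = 0.00417). In the fit with slide, 2 fibroblast probes rose and 5 fell, those of S100a4 and Mgp among them (adjusted p = 0.0244 and 0.0465). Blood cell markers were dim, with a summed signal over 24 probes of 1.81 to 1.92 with BRG1 siRNA, against 1.89 to 2.37 with control siRNA, and Emr1, a defining gene of macrophages, was well above background on no array. Of 12 tested blood cell probes Cd68 rose by 0.47 (adjusted p = 0.00655) and Laptm5 fell by 0.75 (adjusted p = 0.0128; 0.0612 without control siRNA replicate 2). Neither passed in the fit with slide (adjusted p = 0.0567 and 0.103). The number of these blood cell calls was near the share over all tested probes. Fewer cells of a type and less RNA per cell cannot be told apart in these bulk samples, and the part of other cells in the members' changes was not tested.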

How the data were processed

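Total RNA of 6 samples of mouse embryonic stem cells was measured on single-colour Agilent arrays, 3 per group. Per the file headers, the deposited intensity values come from array design 014868, read with Agilent Feature Extraction 9.5.3.1, with mm7 probe coordinates; the processed signal was background-subtracted and detrended within the array and not normalized between arrays. The deposited value table held the same intensity values (largest difference 0), linear and not centred; its columns have no ratio direction. From these, the log2 ratio of each processed signal to its array's 75th percentile over non-control spots was computed. The 1639 control spots and outlier-marked spots (387 on at least 1 array) were left out, saturated spots (0 to 2 per array) kept, and spots of a probe averaged. A probe was tested if all 3 arrays of 1 or both groups were well above background.

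Groups were compared by limma 3.58.1 in R 4.3.3 (lmFit, eBayes, two-sided, Benjamini-Hochberg over 26258 probes, threshold 0.05). In data simulated at this size (26228 probes), 12%, 60%, 80% and 94% of probes changed 1.25, 1.5, 2 and 4-fold were recovered. The simulation changed 50 probes at each fold, with independent normal noise and no slide effect. In the data 19.6% of tested probes were called, so these rates may not hold there. Per-array values are given for the 14 called members with the largest change among those well above background on all 6 arrays, 1 probe a gene, and for the receptors, Stat2 and Irf9; those of Smarca4, Ifitm1, Ifitm3 and Rtp4 and the placements of probes were added after their values were seen; called members and the brightest uncalled probe of a role may be named, and of other lists up to 4 called genes. Counts cover all members, but results of some members are not reported here. A few further probes of named genes, and the called stem cell markers beyond that number, are given beside these. The members, lists and rules were chosen with earlier results of these data known. Of 99 probes 80 matched RefSeq (GRCm38.p6) by accession, used for names, and promoters are RefSeq's. Alternatives covered background correction, scaling, filter, slide, replicate number, probes of a gene, moderation and left-out arrays. Same-numbered samples did not deviate together (correlations of deviations -0.289, 0.121 and 0.0288). Samples of different numbers gave -0.347 to 0.316, so with 3 arrays a group this cannot settle whether the numbers pair samples. Precision is limited by having 3 arrays a group.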

Additional observations from a re-analysis of the deposited data

How the results depend on the processing

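The 20 falling and 8 rising member probes were 9 and 4 with median scaling, 9 and 3 without the filter on dim probes, 7 and 3 with slide as a fixed block, and 0 and 0 on slide 1 alone. Spike-in scaling gave 9 falling, and the mean of a gene's probes 13. The count over all tested probes, 5154, was 2031 with median scaling, 1856 without the filter, 1267 with the slide block and 0 on slide 1 alone. Leaving out 1 array gave 8 to 16 falling members, 2 to 8 rising members, 1634 to 5703 of all probes and a member median of -0.22 to -0.14. The median was -0.11 with median scaling and 0.04 with spike-in scaling, under which Ifnar2 (0.04), Ifngr2 (0.11) and Stat2 (0.06) turned positive. With the replicate block 9 members fell and 3 rose, of 2150 calls in all. Whether the replicate numbers pair samples could not be settled. Normexp background, quantile normalization, slide as a random block, the deposited value table, trended moderation and the stricter filter left 17 to 20 falling and 8 to 9 rising, but with normexp 1 called member, not 6, changed at least 2-fold. Of the 21 single probes followed, 5 lost their call with median scaling, 4 with spike-in scaling, 5 with the replicate block, 8 with slide as a fixed block, 19 on slide 1 alone and 6 without control siRNA replicate 3. The causes of these shifts were not tested. Signal over background limits the dim members, of which 34 could not be tested.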
